A study of Homo sapiens with 32 samples.

Results

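The replication-dependent histone genes supply the histone proteins that package newly copied DNA. Their members were taken by name: genes whose symbol, mapped from the Ensembl identifier, is one of the linker histones H1-1 to H1-5 or has the form H2AC, H2BC, H3C or H4C followed by digits, without pseudogenes. The rule gives 68 symbols, and 64 of them were found among the 58721 genes of the expression tables. The other 4, H3C2, H3C3, H2AC18 and H2AC19, were not analysed here. The 64 members comprise 5 H1, 15 H2A, 18 H2B, 11 H3 and 15 H4 genes.

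The study examined how eIF3d acts in human cells under long-lasting endoplasmic reticulum (ER) stress. eIF3d belongs to translation initiation factor eIF3 and can itself hold the 5′ cap of an mRNA. All cells were HEK293T, an established line derived from embryonic kidney, and the groups received thapsigargin (Tg) at 600 nM for 16 h or the same volume of its solvent DMSO. By blocking calcium uptake into the ER, thapsigargin sets off the integrated stress response. RNA-Seq had 4 groups of 2 libraries: eIF3d (S528D, S529D) cells, called DD, in Tg and in DMSO, and WT eIF3d cells in Tg and in DMSO. DD is phosphomimetic, with aspartate in place of 2 serines. Subunit-Seq had 4 groups of 2 libraries from HA-eIF3d-TEV cells: immunoprecipitate (IP) and input in Tg, and IP and input in DMSO. In Subunit-Seq, tagged eIF3d was pulled down through its HA tag, its cap-binding part was cut loose with TEV protease, and the RNA that came with it was sequenced. A further 16 libraries came from m6A-eCLIP, a method that locates N6-methyladenosine by crosslinking an antibody to RNA, and 1 site list each for DD Tg, DD DMSO, WT Tg and WT DMSO is used. The labels do not say whether each cell line is 1 clone, nor that replicates came from separate cultures, so p-values measure the spread between these libraries only. An IP from cells without the tag was not analysed here.

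Replication-dependent histone mRNAs are made in S phase, when histones H2A, H2B, H3 and H4 form the nucleosome core around new DNA and H1 binds the linker between nucleosomes. Unlike other mRNAs of animal cells they are intronless as a rule and end in a short stem-loop in place of a poly(A) tail. The stem-loop binding protein SLBP holds that end through processing, translation and the rapid decay that follows S phase. RNA-Seq here began with polyadenylated RNA, which recovers such mRNAs only in part, and whether the Subunit-Seq inputs were selected by tail is not stated in the labels.

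Short sequences around member sites in the m6A lists are shown because they are where the site lists and the gene starts meet. They are from RefSeq, build GRCh38.p14, 5′ to 3′ on the gene's strand, with the listed adenosine in capitals. The H4C5 window is chr6:26204600-26204620 on the plus strand and its site, in all 4 lists, is the first base of the gene. The H2AC20 window is chr1:149886909-149886929 (plus), with the site in 3 lists. The H2BC5 window is chr6:26158134-26158154 (plus), where 3 lists have the capital base alone and DD Tg has it within a site of 2 bases. The windows of H2AC13, chr6:27808163-27808183 (plus), of H2AC17, chr6:27893175-27893195 (minus), and of H2BC18, chr1:149812360-149812380 (minus), each have a site at the first base of the gene in 1 list.
H4C5: cttgtttttcAgatttttgcg
H2AC20: ttctctttcaAtcttattttg
H2BC5: ggtgtttgcaAcagtgttcta
H2AC13: gtttcacttcAgtctttcttg
H2AC17: ggttcctttcActcactttct
H2BC18: gttttgcggtAgttcggatta

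The promoters of 2 abundant members show how the classes differ before the start. H2BC12 lies on the minus strand of chromosome 6 and is shown over chr6:27146856-27146985, and H4C12 over chr6:27831561-27831690, also minus, each the 130 bases before the start in the promoter table. Capitals mark the TATA box letters TATAAA, the motif CCAAT and the octamer ATTTGCAT, each searched on both strands, so that a CCAAT of the other strand appears as ATTGG.
H2BC12: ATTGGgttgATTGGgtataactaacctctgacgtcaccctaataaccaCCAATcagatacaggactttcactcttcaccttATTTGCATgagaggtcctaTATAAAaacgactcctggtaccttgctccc
H4C12: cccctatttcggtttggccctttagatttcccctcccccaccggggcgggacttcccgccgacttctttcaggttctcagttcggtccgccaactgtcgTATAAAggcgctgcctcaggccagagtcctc
Over windows of 250 bases before to 50 after the start, found for 59 members, TATAAA was present in 66.1% of members and in 11.5% of all 35116 promoters. CCAAT, the motif of the NF-Y factor, was present in 83.1% of members and 34.6% of all promoters. All 5 H1, 14 H2A, 18 H2B and 9 H3 windows held CCAAT, but 3 of 13 H4 windows did. The octamer ATTTGCAT, which POU domain factors such as OCT1 recognise, was present in 44.1% of members and in 1.77% of all promoters. It was found in 14 of 18 H2B and 11 of 14 H2A windows, in 1 of 9 H3 windows and in none of the 5 H1 or 13 H4 windows. The motifs do not overlap each other in the stretches printed above, and a match describes letters only.

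RNA-Seq libraries held 4508483 to 10163214 reads and Subunit-Seq libraries 5102852 to 16860637, recovered from the steps in the deposited values. Mitochondrial ribosomal RNA took 25.4 to 57.3% of RNA-Seq reads, 4.64 to 20.4% of input reads and at most 0.705% of IP reads. EIF3D, the targeted gene, had 64.3 and 29.2 RPKM (reads per kilobase of gene, relative to library size) in DD Tg cells, 37.5 and 76.6 in DD DMSO cells, 44.2 and 91.2 in WT Tg cells and 68.3 and 69.6 in WT DMSO cells. In Subunit-Seq it had 256 and 181 RPKM in the Tg IP libraries, against 79.9 and 257 in the Tg inputs, and 158 and 153 in the DMSO IP libraries, against 104 and 37.6 in the DMSO inputs. It was called in no contrast, its RNA-Seq groups overlapped, and reads of the native gene and of an introduced copy cannot be separated. Of 7 marker genes of cell types the line should lack, 6 averaged below 1 RPKM in RNA-Seq. The fibroblast gene COL1A1 averaged 8.06 RPKM, with 13.2 to 19.0 in the replicate 1 RNA-Seq libraries and 0.0904 to 0.293 in those of replicate 2. It reached 49.9 RPKM in the first DMSO IP library. Of 7 markers of the line, NEFL, NEFM and VIM were also higher in every replicate 1 RNA-Seq library than in any of replicate 2. NEFM had 31.9 to 62.2 RPKM against 0.0693 to 1.23. KRT8 and KRT18 overlapped, and PAX2 and LHX1 averaged below 1 RPKM. The reason for this split was not tested.

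Among the 64 members, 8 were listed at 0 in all 16 expression libraries and 56 were above 0 in at least 1. A mean of at least 1 RPKM, the floor for testing, was passed by 45 members in RNA-Seq and by 44 in the Subunit-Seq inputs, the difference being H3C6. H2BC12 stood highest in RNA-Seq, with a mean of 401.9 RPKM and libraries between 268 and 587. Next came the linker histones H1-2, with a mean of 371 RPKM and a range of 243 to 802, and H1-4, with 284 RPKM and 106 to 932. H4C12 averaged 236 RPKM (103 to 888) and H4C3 141 RPKM (74.2 to 244). Every H2BC12 library stood above every H4C3 library, while all other pairs of these 5 had overlapping ranges, so most of the order is not fixed by 8 libraries. Together they held 47.3% of the summed RNA-Seq level of all members, and the top 5 in the inputs held 48.3%. H2AC20 led the H2A genes at 135 RPKM. H3C14 and H3C13 led the H3 genes at 65.9 and 52.1 RPKM. H1-5 reached no more than 0.539 RPKM in any RNA-Seq library. RPKM divides by the length of the gene model, and the lengths recovered for members run from 312 bases, as for H4C12, to 5477 for H2BC15, with 1656 for H3C14 and H3C15. A long model lowers the RPKM of a gene whose reads lie in a short part of it.

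**Figure D1:**
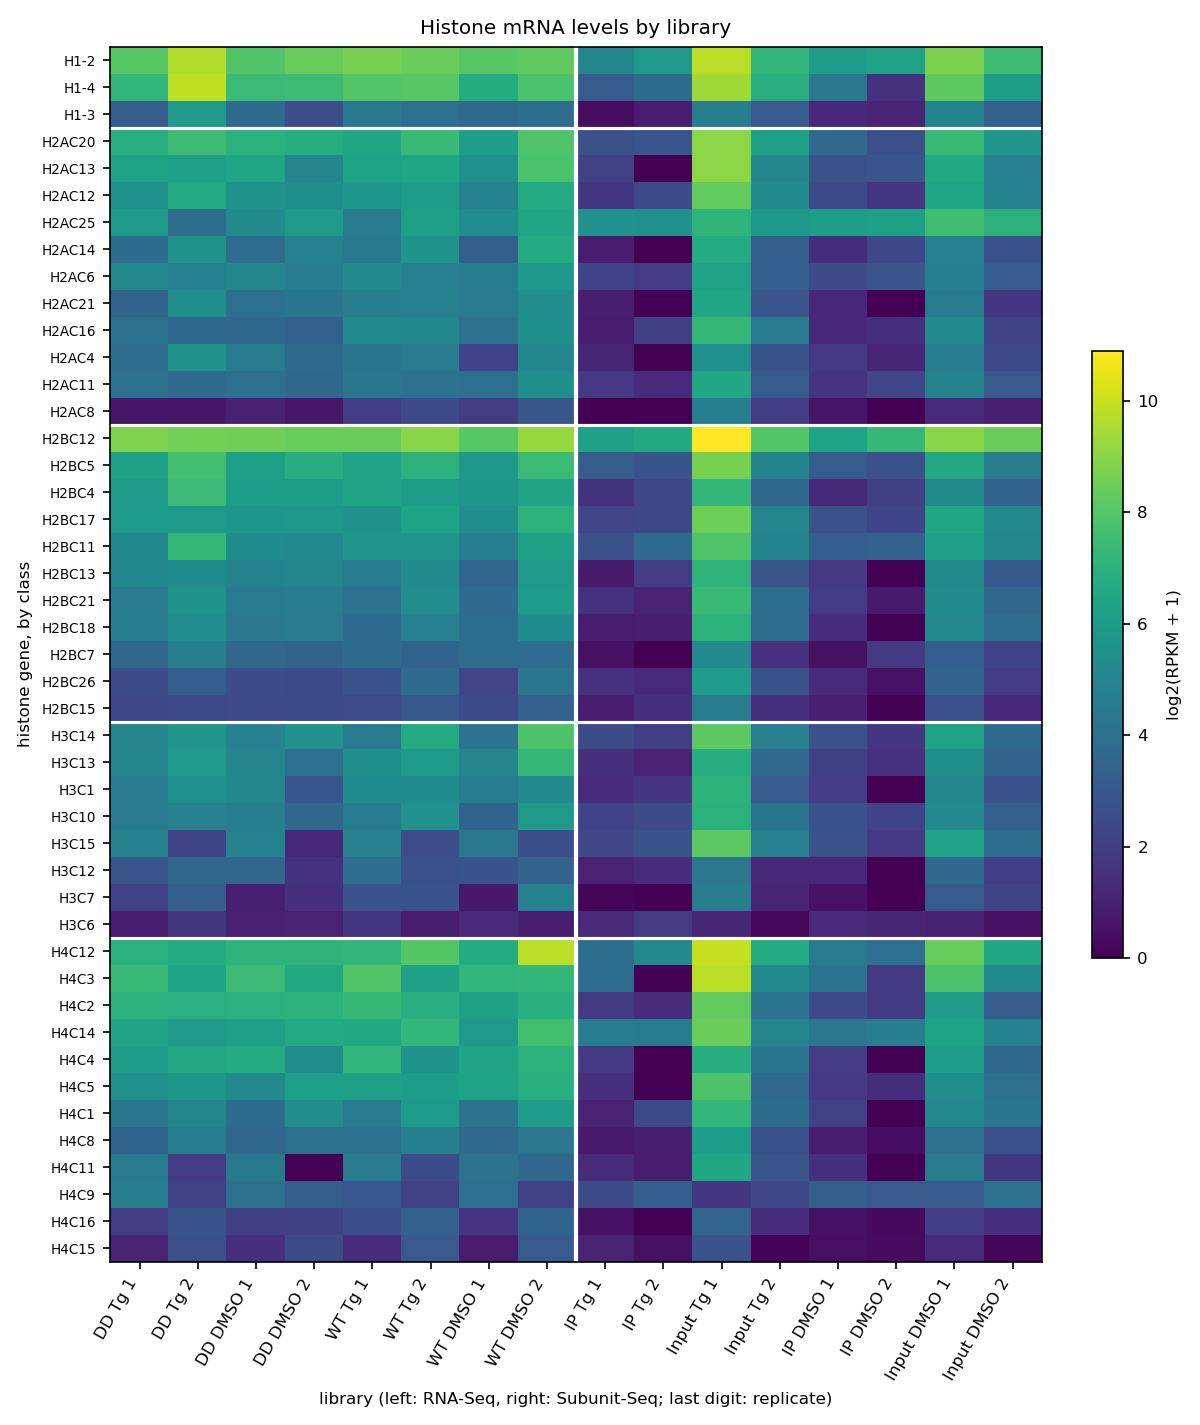
Level of each tested member in the 16 expression libraries. Rows are the 45 members tested in RNA-Seq, ordered by class, columns are libraries, and colour is log2(RPKM + 1). Members are brightest in the first Tg input, where 41 of 44 have their highest input value, and darkest in the IP libraries.

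The main comparison asked how much of each mRNA came down with the cap-binding part of eIF3d. Most of the tested histone mRNAs were low in the IP in both treatments. In Tg, 40 of 44 members were lower in the IP than in input and 0 were higher, where 1.62% of the 9803 genes tested were lower and 14.6% higher (limma on log2(RPKM + 1), Benjamini-Hochberg adjusted p under 0.05 over all genes tested). In DMSO, 36 of 44 members were lower and 0 higher, where 1.75% of all genes were lower and 21.4% higher. The median log2 difference of IP minus input was -3.61 over members and 0.88 over all genes in Tg, and -2.46 over members and 0.96 over all genes in DMSO. Members made up 25.2% of all lower calls in Tg and 20.9% in DMSO. Of the 100 genes with the lowest difference, 40 were members in Tg and 35 in DMSO. The rule for members uses names only, but that histone mRNAs were low in the IP was known from earlier work with these data when the members were chosen. The floor was set on the inputs, so members low in input but higher in the IP were not counted. Without a floor, 6 of 55 members had a positive difference in Tg and 7 in DMSO, against 1 and 0 of the 44 tested. H3C6, below the floor, had 1.48 and 2.74 RPKM in the Tg IP libraries, against 1.24 and 0.186 in the inputs. In DMSO it had 1.485 and 1.28 RPKM in the IP libraries, against 1.01 and 0.383 in the inputs.

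The separation was also visible library by library. In Tg, both IP libraries were below both inputs for 41 members, against 6.36% of all genes, and both were above for 1 member, against 64.7% of all genes. In DMSO the counts were 42 lower and 0 higher, against 6.75% and 56% of all genes. Taken within a replicate number, the member median in Tg was -5.34 in replicate 1 and -1.91 in replicate 2. In DMSO it was -3.24 in replicate 1 and -1.82 in replicate 2. The direction was shared by both replicates and the size was not.

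**Figure D2:**
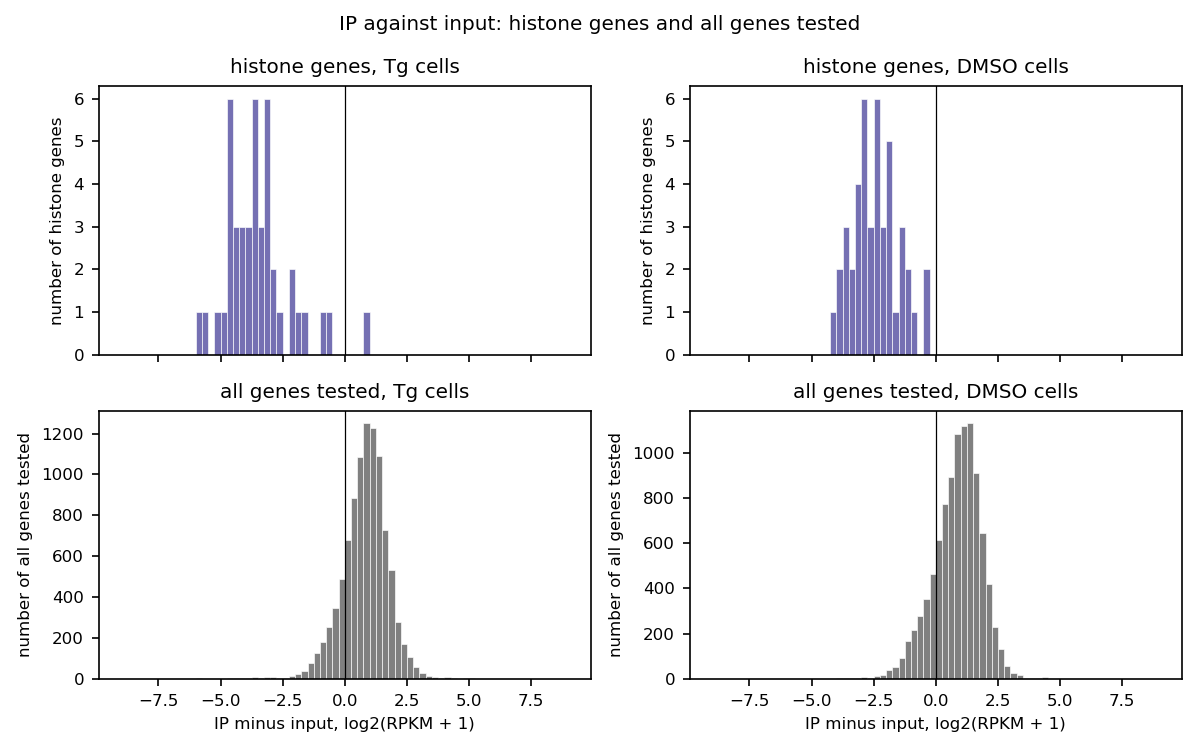
Distribution of the log2 difference of IP minus input for the 44 tested members (upper panels) and all 9803 genes tested (lower panels), in Tg (left) and DMSO (right), in bins of 0.25. Members centre at -3.61 in Tg and -2.46 in DMSO, to the left of the all-gene medians of 0.88 and 0.96.

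The summed level of all members depends less than single members do on how reads were divided among near-identical copies. It was 293 and 363 RPKM in the 2 Tg IP libraries, against 11367 and 1270 RPKM in the Tg inputs of the same replicate. In DMSO it was 408 and 432 RPKM in the IP libraries, against 3544 and 1288 RPKM in the inputs. The input was thus 38.8 and 3.50 times the IP in Tg, and 8.68 and 2.98 times the IP in DMSO. All 4 IP libraries lay within a narrow range and the inputs did not: the first Tg input stood far above the other 3. By class, the H3 sum differed most in DMSO among replicate 2 pairs, with an input 5.18 times the IP, and the H2A sum least, with 2.52 times. In Tg the ratio of replicate 1 ran from 30.9 for H2A to 53.4 for H3, and that of replicate 2 from 3.0 for H2B to 4.26 for H3.

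**Figure D3:**
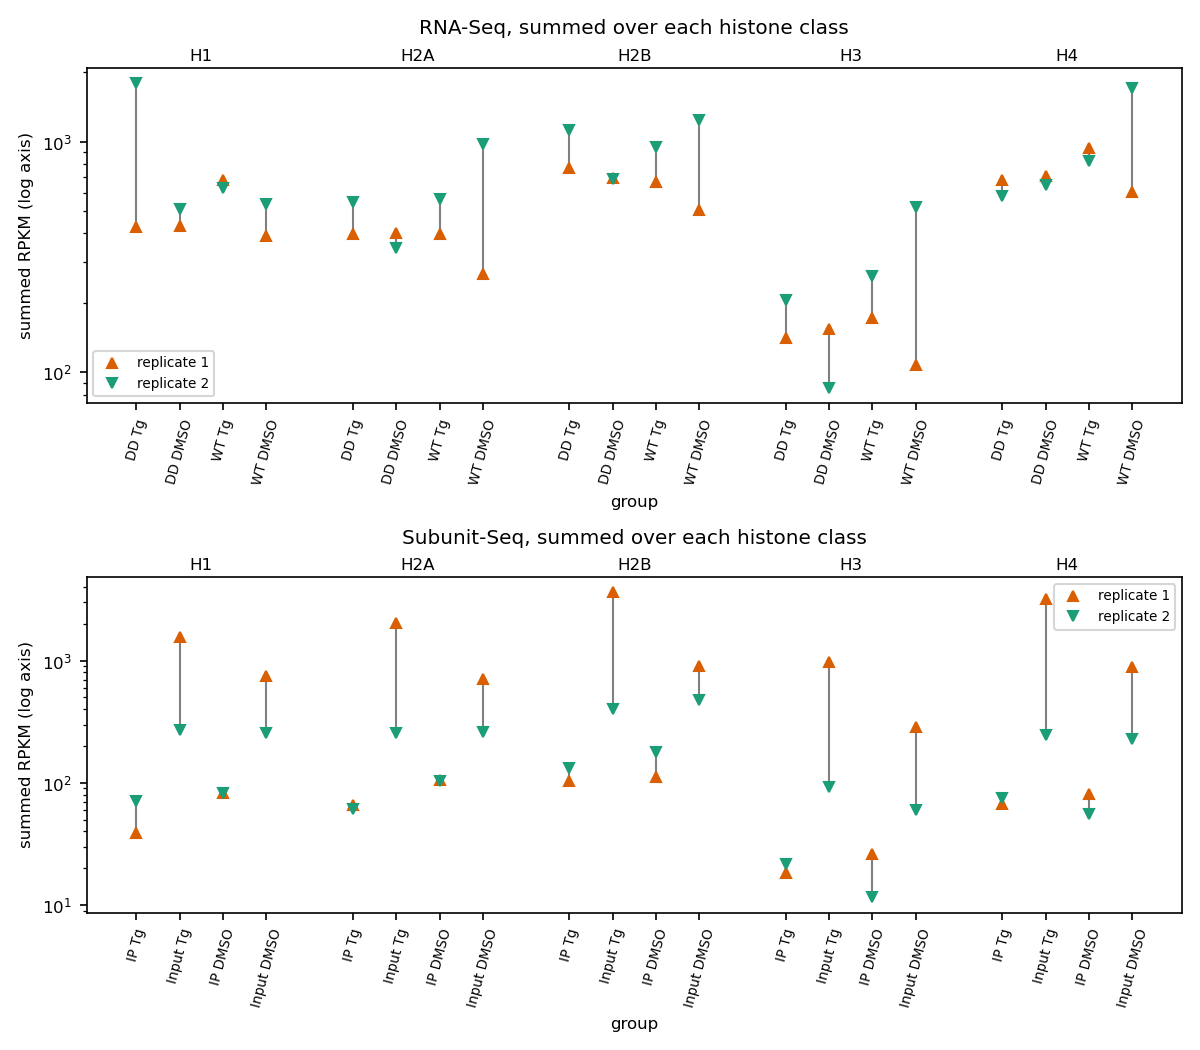
Summed RPKM of the members of each histone class in every library, RNA-Seq above and Subunit-Seq below, on log axes, with Tg left of DMSO and the IP left of input; a line joins the 2 replicates of a group. In Subunit-Seq, for every class, both IP libraries lie below both inputs of the same treatment, and the first Tg input is the highest of the inputs.

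All 3 tested linker histone genes were called lower in the IP in both treatments. H1-4 (chr6:26156329-26157115, GRCh38, plus strand) had 7.47 and 13.3 RPKM in the Tg IP libraries, against 654 and 117 RPKM in the Tg inputs. Its values in DMSO were 19.6 and 1.97 RPKM in the IP libraries, against 297 and 66.5 RPKM in the inputs. The groups did not overlap in either treatment, and the log2 difference was -4.66 ± 0.66 (SE, 2 libraries a group; limma adjusted p = 4.89e-10) in Tg and -4.18 ± 0.66 (limma adjusted p = 8.09e-08) in DMSO. H1-2 (chr6:26055740-26056470, minus strand) had 30.7 and 57.1 RPKM in the Tg IP libraries, against 875 and 148 RPKM in the inputs. In DMSO it had 61.8 and 77.1 RPKM in the IP libraries, against 427 and 181 RPKM in the inputs. H1-2 stood closer to its input than H1-4, and its groups did not overlap either, with log2 differences of -3.07 ± 0.59 in Tg and -1.99 ± 0.59 in DMSO (limma adjusted p = 2.28e-05 and 0.0108). The gap between these 2 genes was not tested. H1-3, at 24.7 and 7.24 RPKM in the Tg inputs, differed by -3.25 in Tg and -2.98 in DMSO.

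Of 11 tested H2A genes, 10 were called lower in Tg and 8 in DMSO, with class medians of -4.17 and -2.04. H2AC13 (chr6:27808173-27808667, plus strand) had 3.42 and 0 RPKM in the Tg IP libraries, against 507 and 32.1 RPKM in the inputs. In DMSO cells it stood at 5.52 and 6.3 RPKM in the IP libraries, against 99 and 25.7 RPKM in the inputs. The groups were apart in both treatments, and its log2 difference of -5.95 ± 0.67 in Tg (limma adjusted p = 6.08e-16) was the lowest of any member. In DMSO its difference was -2.91 ± 0.67 (limma adjusted p = 0.000943). H2AC20, the most abundant H2A gene, had 5.47 and 6.48 RPKM in the Tg IP libraries, against 516 and 72.5 RPKM in the inputs, a difference of -4.81 ± 0.66. Its values in DMSO were 12.3 and 5.36 RPKM in the IP libraries, against 165 and 51.3 RPKM in the inputs, a difference of -3.34 ± 0.66. H2AC12 and H2AC14 were also called in both treatments, at -4.69 and -4.56 in Tg and -3.56 and -1.89 in DMSO.

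Some H2A genes did not pass. H2AC25, on chromosome 1 away from the main clusters (chr1:228457364-228457873, minus strand), had 44.6 and 43 RPKM in the Tg IP libraries, against 141 and 54.6 RPKM in the inputs. In DMSO it had 68.9 and 72.9 RPKM in the IP libraries, against 190 and 127 RPKM in the inputs. Its libraries did not overlap, yet the differences of -0.99 ± 0.63 in Tg and -1.12 ± 0.63 in DMSO missed the threshold (limma adjusted p = 0.236 and 0.157). H2AC8 was at 0 in both Tg IP libraries, against 25.4 and 2.94 RPKM in the inputs. Taking 3 reads as the most that a count of 0 allows in a library, which covers counting error only, it was at least 72.7-fold lower in replicate 1 and at least 7.89-fold lower in replicate 2. It is one of the 40 members called in Tg, and it was not called in DMSO. H2AC6 passed in Tg and not in DMSO.

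H2B genes were lower in the IP for 11 of 11 in Tg and 10 of 11 in DMSO, with class medians of -3.46 and -2.65. H2BC12 (chr6:27138293-27146858, minus strand) had 75.5 and 97.7 RPKM in the Tg IP libraries, against 1915 and 256 RPKM in the inputs. In DMSO cells it stood at 78.2 and 151 RPKM in the IP libraries, against 493 and 342 RPKM in the inputs. The groups were apart in both treatments, with differences of -3.01 ± 0.55 in Tg and -1.91 ± 0.55 in DMSO (limma adjusted p = 5.36e-06 and 0.00862). Its values rest on 485 and 589 reads in the Tg IP libraries and 3724 and 1171 reads in the Tg inputs, and on 322 and 851 reads in the DMSO IP libraries and 1526 and 1903 in the DMSO inputs. The RefSeq span of H2BC12, 8566 bases, contains H4C9. The length recovered for H2BC12 is 381 bases and its place in the span is not given, so whether some reads could belong to either gene is not known. H2BC18 had the lowest difference of the class in both treatments. It had 0.761 and 0.87 RPKM in the Tg IP libraries, against 132 and 13.9 RPKM in the inputs, and 1.59 and 0 RPKM in the DMSO IP libraries, against 34.1 and 14 RPKM in the inputs. Its differences were -4.62 in Tg and -3.83 in DMSO (limma adjusted p = 2.3e-10 and 6.81e-07), and its span overlaps another gene. H2BC17, H2BC21, H2BC5 and H2BC4 were called in both treatments, at -4.40, -4.32, -3.79 and -3.46 in Tg and -3.35, -3.07, -2.65 and -2.66 in DMSO. H2BC15 passed in Tg and not in DMSO.

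Of 7 tested H3 genes, 6 were called lower in Tg and 7 in DMSO, with class medians of -3.50 and -2.66. H3C14 (chr1:149840687-149841208, minus strand) had 4.66 and 3.09 RPKM in the Tg IP libraries, against 281 and 25.8 RPKM in the inputs. Its values in DMSO were 5.48 and 2.28 RPKM in the IP libraries, against 76.6 and 12.9 RPKM in the inputs. Both IP libraries were below both inputs in each treatment, and the differences were -4.17 ± 0.67 in Tg and -2.83 in DMSO (limma adjusted p = 8.6e-08 and 0.00127). H3C15, which has the same recovered length and nearly the same input values as H3C14, differed by -3.90 in Tg and -2.86 in DMSO. These are near-identical copies, so the division of reads between them is uncertain. H3C13 and H3C1 differed by -4.0 and -3.50 in Tg. H3C12 had 1.15 and 1.63 RPKM in the Tg IP libraries, against 19.2 and 1.39 RPKM in the inputs, and was not called there (limma adjusted p = 0.0568).

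Of 12 tested H4 genes, 10 were called lower in Tg and 8 in DMSO, with class medians of -3.67 and -2.61. H4C3 (chr6:26103933-26104337) had 14.5 and 0 RPKM in the Tg IP libraries, against 874 and 36.1 RPKM in the inputs. In DMSO it had 16.6 and 2.64 RPKM in the IP libraries, against 226 and 35.1 RPKM in the inputs. The groups did not overlap, and the differences were -5.52 ± 0.67 in Tg and -3.50 in DMSO (limma adjusted p = 1.22e-13 and 3.32e-05). H4C12 (chr6:27831174-27831560, minus strand) had 14.3 and 36.7 RPKM in the Tg IP libraries, against 975 and 103 RPKM in the inputs. In DMSO cells it stood at 20.8 and 14.7 RPKM in the IP libraries, against 330 and 88.9 RPKM in the inputs. Its groups were apart too, with differences of -3.73 ± 0.63 and -3.22 (limma adjusted p = 7.28e-07 and 6.63e-05). H4C5 differed by -5.05 in Tg and -3.10 in DMSO, H4C4 by -4.62 and -3.94, and H4C2 by -4.61 and -2.46.

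Other H4 genes stood closer to their input. H4C14 had 22.6 and 21.7 RPKM in the Tg IP libraries, against 352 and 29.8 RPKM in the inputs, and 18.9 and 24.7 RPKM in the DMSO IP libraries, against 79.8 and 27.4 RPKM in the inputs. It was called at -2.17 in Tg and missed the threshold at -1.09 in DMSO (limma adjusted p = 0.0141 and 0.193). H4C9, which lies inside the H2BC12 span, had 4.58 and 8.7 RPKM in the Tg IP libraries, against 2.27 and 3.98 RPKM in the inputs. It had the one positive difference in Tg, 0.87 ± 0.64 (limma adjusted p = 0.312). In DMSO its libraries overlapped, at 8.72 and 7.19 RPKM in the IP and 7.22 and 15.9 RPKM in the inputs. The low H4C15 passed in neither treatment, and H4C16 passed in Tg only.

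**Figure D4:**
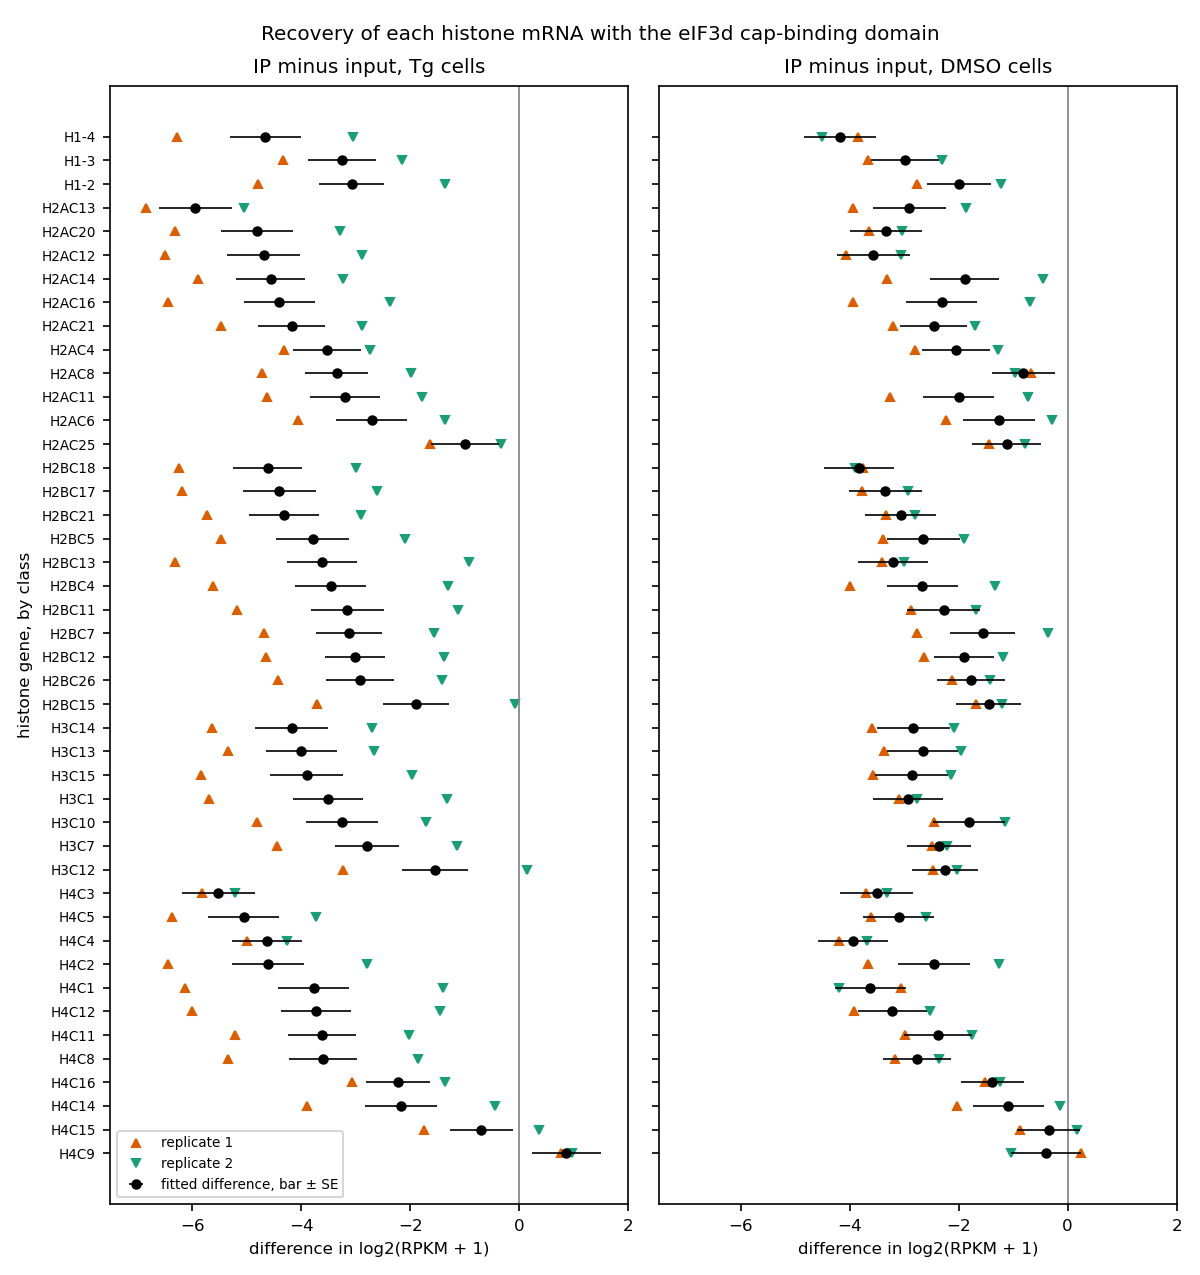
Log2 difference of IP minus input for each tested member in Tg (left) and DMSO (right). Up-pointing orange triangles are replicate 1, down-pointing green triangles replicate 2, and black marks are the fitted difference with its SE. Nearly all members lie below 0 in both replicates, replicate 1 lies further from 0 in Tg, and H4C9 is the one member with a positive fitted difference in Tg.

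Members with short gene models had the lowest median difference. In Tg the median difference was -4.09 over 20 members with a recovered length of up to 600 bases, -3.20 over 8 of 600 to 1000 bases and -3.16 over 16 of 1000 bases or more. In DMSO the medians were -2.78, -2.46 and -1.79. The groups also differed in level, with median inputs of 52.2, 110 and 31.4 RPKM in the same order. The part of level in these differences was not tested. All 20 short members were called lower in Tg and 19 in DMSO, and of the 16 long ones 14 were called in Tg and 10 in DMSO. Without the members whose span overlaps another gene and without H3C14, H3C15, H4C14 and H4C15, an alternative chosen after seeing the data, 34 of 36 were called in Tg and 31 of 36 in DMSO.

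These calls rest on a spread pooled over all genes, because the fit gave each gene's own spread no weight, and with each gene's own spread, or with no floor on low values, 0 members passed in either treatment. Without the replicate block 6 members passed in Tg and 0 in DMSO. Scaling by median ratios put the all-gene median at -0.10 in Tg and -0.12 in DMSO, left 27 genes higher and 50 lower in Tg and 11 higher and 8 lower in DMSO, and called 31 members in Tg and 7 in DMSO. Leaving out the first Tg input gave 11 calls in Tg and leaving out the second DMSO input gave 0 calls in DMSO. Leaving out the first Tg IP library gave 18 calls in Tg. In DMSO, leaving out the first input, the first IP library and the second IP library gave 14, 13 and 23 calls. The member median less the all-gene median stayed below 0 in every setting tried, between -5.97 and -3.0 in Tg and between -4.55 and -2.46 in DMSO.

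Whether Tg changed the share of histone mRNA in the IP was asked by the difference of the 2 contrasts. No member passed in limma, where 0.0612% of all genes did, and voom weights on recovered reads also called 0 members. At an unadjusted p under 0.05 limma gave 8 of 44 members, beside 0.877% of all genes, and voom gave 4 members. The member median of the difference was -1.10, with -2.15 in replicate 1 and -0.13 in replicate 2, and leaving out 1 library at a time moved it between -2.36 and 0.18. H2AC13 had the lowest difference, -3.04 ± 0.95 (limma adjusted p = 0.983), and it was below 0 in both replicates. Comparing the Tg IP with the DMSO IP directly, 0 members passed with limma or voom, where in limma 0.0714% of all genes did and 0.0204% were lower, and the member median was -0.08. At an unadjusted p under 0.05 limma gave 2 members, beside 1.68% of all genes. Both IP libraries were lower in Tg for 8 members and higher for 1, where 7.47% and 18.1% of all genes were.

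The inputs were also set against each other. In the Tg inputs against the DMSO inputs the member median was 0.98, against 0.15 over all genes, with 1.92 in replicate 1 and 0.20 in replicate 2. No member passed in limma, where 0.051% of all genes did, and voom weights called 0 members. At an unadjusted p under 0.05 limma gave 11 of 44 members, beside 3.31% of all genes, and voom gave 3 members. Both Tg inputs were lower than both DMSO inputs for 1 member and higher for 1, where 8.24% and 6.4% of all genes were. The first Tg input held the highest input value for 41 of 44 members, and without it the member median was -0.22. In both treatments together, the inputs of replicate 1 were all above those of replicate 2 for 42 of 44 members, as they were for 47.5% of all genes. Mitochondrial ribosomal RNA took 19.9 and 9.41% of reads in the Tg inputs and 4.64 and 20.4% in the DMSO inputs. After scaling to the reads outside it, 0 members and 0 genes were called between inputs and the member median was 1.02. For IP against input the same scaling called 39 members in Tg and 34 in DMSO.

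RNA-Seq asked whether the DD substitutions or Tg altered the amount of histone mRNA. No member passed in any of 5 contrasts, and neither did any other gene, so that 0% of genes were called in each. At an unadjusted p under 0.05 limma gave 1 member for DD against WT in Tg, beside 0.852% of all genes, and 1 in DMSO, beside 0.706%. It gave 0 members for the other 3 contrasts, beside 0.218 to 0.26% of all genes, and voom weights on recovered reads called 0 members. In bulk RNA, fewer cells in S phase and less histone mRNA per cell cannot be told apart. The summed member level was 2411 and 4252 RPKM in DD Tg cells, against 2387 and 2283 RPKM in DD DMSO cells. It was 2847 and 3225 RPKM in WT Tg cells, against 1875 and 4977 RPKM in WT DMSO cells. The second DD Tg and the second WT DMSO library were the highest, and the libraries of these groups lay further apart than those of DD DMSO and WT Tg.

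For Tg against DMSO the member median was 0.31 in DD cells and 0.03 in WT cells, beside 0.02 and 0.12 over all genes. Within replicate numbers it was -0.03 and 0.78 in DD cells and 0.53 and -0.51 in WT cells, so that the replicates had opposite signs in both. For DD against WT the member median was -0.14 in Tg and -0.39 in DMSO, beside 0.05 and 0.13 over all genes. It was -0.26 and 0.01 within replicates in Tg, and 0.36 and -1.18 in DMSO. The interaction, the Tg effect in DD less that in WT, had a median of 0.36 beside -0.10 over all genes, with -0.58 and 1.27 within replicates. Leaving out 1 library at a time moved the median across 0 in all 5 contrasts.

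Single members showed which libraries carried the spread. H1-4 had 147 and 932 RPKM in DD Tg cells, 173 and 178 in DD DMSO cells, 251 and 267 in WT Tg cells and 106 and 220 in WT DMSO cells. H1-2 had 272 and 802 RPKM in DD Tg cells, 243 and 328 in DD DMSO cells, 408 and 345 in WT Tg cells and 270 and 300 in WT DMSO cells. For both, the second DD Tg library stood far above the rest, and the WT groups did not overlap, with Tg higher than DMSO by 0.76 ± 0.98 for H1-4 and 0.40 ± 0.82 for H1-2 on the log2 scale (SE), neither called. H4C12 had 121 and 103 RPKM in DD Tg cells, 134 and 135 in DD DMSO cells, 144 and 255 in WT Tg cells and 104 and 888 in WT DMSO cells. H3C14 had 30.4 and 51.1 RPKM in DD Tg cells, 27.2 and 46.2 in DD DMSO cells, 21.2 and 101 in WT Tg cells and 16.9 and 233 in WT DMSO cells. In these core histone genes the second WT DMSO library was the high one, and that library held the highest value for 24 of 45 members, while the second DD Tg library did for 11. The division of reads between H3C14 and its near-identical copy H3C15 is uncertain. The summed H3 level was also highest in the second WT DMSO library, at 522 RPKM. H2BC12, the most abundant, had 438 and 387 RPKM in DD Tg cells, 377 and 328 in DD DMSO cells, 336 and 495 in WT Tg cells and 268 and 587 in WT DMSO cells. Its Tg libraries were both above its DMSO libraries in DD cells (0.23 ± 0.78, not called) and overlapped with them in WT cells.

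Members with separate groups were counted out of the 45 tested, beside the share of all genes, and the shares were not tested against each other. For Tg against DMSO in DD cells, 8 members were higher and 4 lower in both Tg libraries, where 8.59% and 4.14% of all genes were. In WT cells 4 were higher, among them all 3 tested linker histone genes, and 2 lower, where 6.55% and 3.72% of all genes were. For DD against WT, 0 were higher and 7 lower in Tg, where 10.3% and 6.07% of all genes were, and 1 was higher and 7 lower in DMSO, where 11.1% and 4.7% were. H2AC8, a low H2A gene, was the member with an unadjusted p under 0.05 in both. It averaged 0.588 RPKM in DD and 3.70 RPKM in WT cells in Tg, and 0.814 RPKM in DD and 4.62 RPKM in WT cells in DMSO, with log2 differences of -1.55 ± 0.49 in each and adjusted p-values of 1 (limma). Some members followed the replicate number instead: H3C15 had 26.3 and 3.76 RPKM in DD Tg cells, 26.7 and 1.3 in DD DMSO cells, 26.3 and 5.03 in WT Tg cells and 19.5 and 5.09 in WT DMSO cells. H3C15 and H4C11 were higher in all replicate 1 libraries than in all replicate 2 libraries, and 6 members, H3C14 among them, were the reverse, as were 18.1% and 6.73% of all genes. H3C14 and H3C15 are near-identical copies, and the division of reads between them is uncertain here too. In WT DMSO cells H3C14 had 16.9 RPKM beside 19.5 for H3C15 in replicate 1, and 233 beside 5.09 in replicate 2. Whether their opposite patterns come from that division was not tested.

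The site lists hold positions without score, coverage or replicates, so their counts have no error and their depth is unknown. They have 5050 sites in DD Tg, 1796 in DD DMSO, 1572 in WT Tg and 3000 in WT DMSO. In the gene spans of members lay 48 sites in DD Tg, 16 in DD DMSO, 7 in WT Tg and 28 in WT DMSO, spread over 19, 12, 7 and 14 members. The lists with more sites overall thus also held more sites in members. In all, 24 members had a site in at least 1 list, 5 of them in all 4 lists: H2AC20, H2BC5, H2BC7, H4C5 and H4C8. With the same start and end, 3 sites stood in all 4 lists, at base 26199593 of chromosome 6 in H2BC7, at 26204610 in H4C5 and at 26285276 in H4C8. Base 26158144 in H2BC5 was also covered in all 4, in DD Tg by the site of 2 bases. No site lay on the strand opposite to a member of known strand. For 2 sites in DD Tg, in H2AC12 and H4C3, the strand of the gene is not given in the reference table.

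By class, H1-2 had the most sites, 13 in DD Tg, 3 in DD DMSO, 0 in WT Tg and 3 in WT DMSO. H1-4 had 1, 1, 0 and 3 in the same order. Among core histones, H2BC5 had 8 sites in DD Tg, 2 in DD DMSO, 1 in WT Tg and 6 in WT DMSO, and H4C5 had 5, 1, 1 and 5. H2BC12, the most abundant, had 4, 1, 0 and 2. Among H3 genes, H3C10 had 1 site, in DD Tg, and a site in DD Tg inside both H2AC7 and H3C4, whose spans overlap, could belong to either. H2AC17 had 3 sites in DD Tg, 0 in DD DMSO, 1 in WT Tg and 1 in WT DMSO, although its level was at most 0.351 RPKM in RNA-Seq and listed at 0 in the inputs. H2AC7 and H3C4 were listed at 0 in all expression libraries. How the authors assigned reads that match several near-identical genes is not given in the sources used here.

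Some member sites lay near the start of the gene. Of the member sites, 16 of 48 in DD Tg, 6 of 16 in DD DMSO, 4 of 7 in WT Tg and 10 of 28 in WT DMSO were within the first 50 bases of the RefSeq span. Of all sites that lay in any RefSeq gene span, 5.12% in DD Tg, 3.61% in DD DMSO, 2.31% in WT Tg and 4.0% in WT DMSO were within the first 50 bases after a start in the promoter table. Member spans are short, so their first 50 bases are a larger part of the gene, and the shares were not tested against each other. The windows of H4C5, H2AC13, H2AC17 and H2BC18 printed above have the listed adenosine at base 1 of the span, and that of H2AC20 at base 2. As background, the base next to the cap of many mRNAs is an adenosine that can carry a related mark, m6Am, which antibodies to m6A also bind, and the lists do not separate the marks. Wherever a site of a single base fell inside the promoter window of any gene in the table, that base was an adenosine, for 256 of 256 sites in DD Tg, 54 of 54 in DD DMSO, 27 of 27 in WT Tg and 99 of 99 in WT DMSO.

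**Figure D5:**
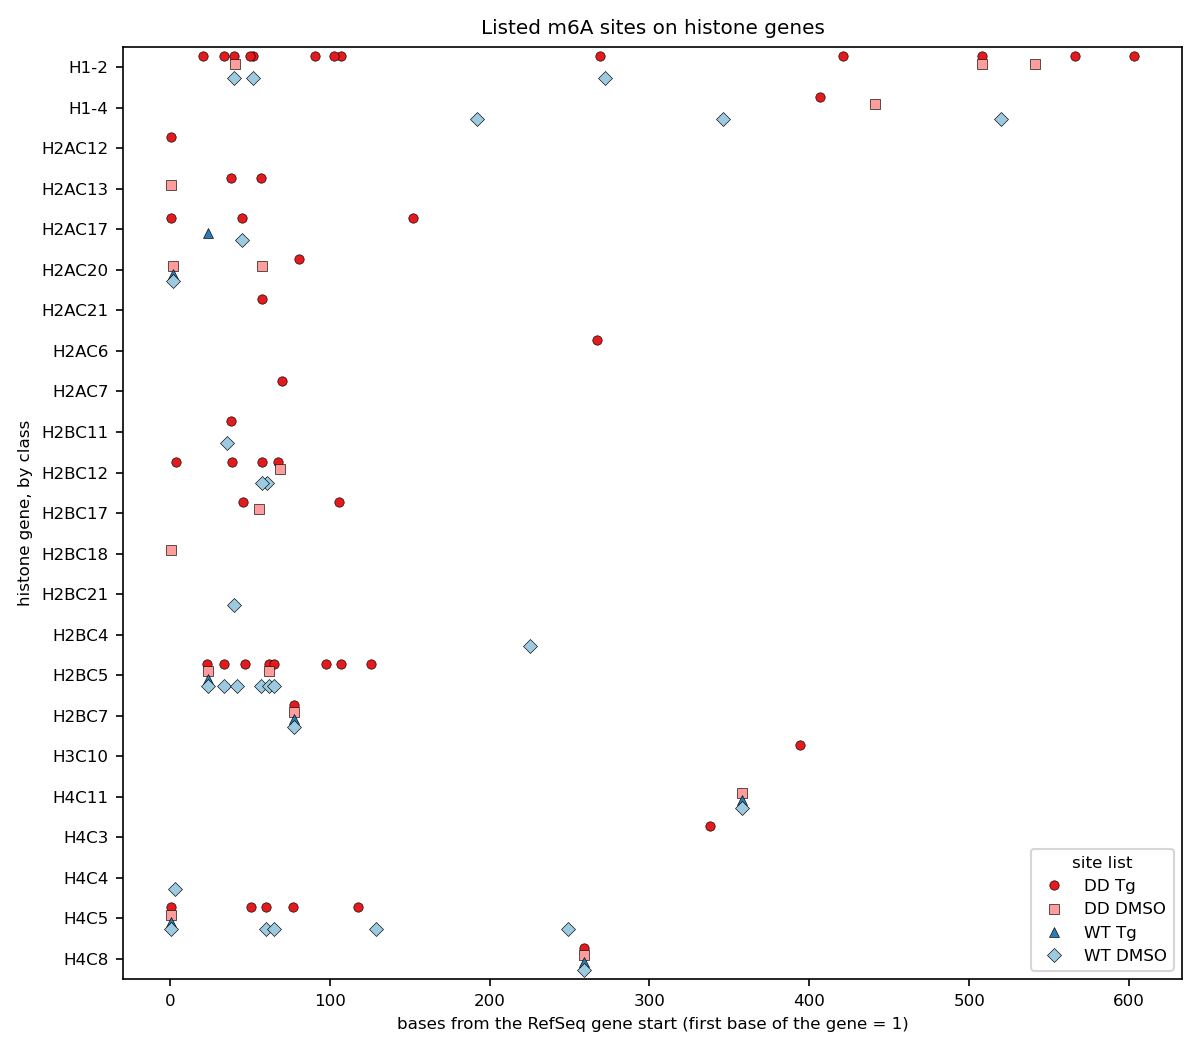
Position of every listed m6A site in each member that has one, in bases from the RefSeq start of the gene, for the 4 lists. H3C4 is not drawn because its site is the one of H2AC7. The DD Tg list has the most member sites, 48, and the sites of H2BC5 and most of those of H4C5 lie near the start.

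Genes that act on histone mRNA or histone protein are set here beside all genes tested, of which 14.6% were higher in the IP in Tg and 21.4% in DMSO, with medians of 0.88 and 0.96. Of 16 tested genes for histone mRNA processing and decay, 0 were lower, 1 was higher in Tg and 5 were higher in DMSO. Their medians were 1.13 and 1.41, and the share higher was below that of all genes in Tg and above it in DMSO. UPF1, a helicase of mRNA decay that also acts on histone mRNA, rose by 1.80 in Tg and 2.21 in DMSO relative to input (limma adjusted p = 0.0397 and 0.01). SLBP, the stem-loop binding protein, differed by 1.13 ± 0.66 in Tg and 1.00 ± 0.66 in DMSO and was not called (limma adjusted p = 0.202 and 0.233). Of 14 histone chaperone genes, 0 were lower, 5 were higher in Tg and 8 in DMSO, with medians of 1.38 and 1.72. Their share higher was above that of all genes in both treatments. NASP, which carries H3 and H4, differed by 2.36 and 2.81, HIRA, which deposits the replacement histone H3.3, by 3.03 and 2.74, and CHAF1A, a subunit of the assembly factor that works at the replication fork, by 2.45 and 2.58. Of 23 S phase genes, 0 were lower, 1 was higher in Tg and 8 in DMSO, with medians of 0.95 and 1.39. Again the share higher was below that of all genes in Tg and above it in DMSO. None of these lists was tested against all genes.

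Replication-independent histone genes make mRNAs that carry poly(A) tails and are read outside S phase too. H2AZ1, a variant H2A, differed by 0.20 in Tg and -0.11 in DMSO, and H2AX, the variant phosphorylated at DNA breaks, by 0.91 and 0.81, none of them called. The genes for processing and decay, the chaperones and the S phase genes had no call in the RNA-Seq contrasts, in the difference between treatments, or between Tg and DMSO within inputs or IP.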

How the data were processed

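RNA-Seq used polyadenylated RNA and a kit without strand marking, and Subunit-Seq a directional kit, per the labels' protocols. Cutadapt, STAR, BWA, DESeq2 and the build GRCh38 appear in the submitters' processing notes; the gene counter and its use of strand are not given in the sources used here. The deposited tables hold RPKM made by the authors. The deposited m6A lists hold positions, without score. Of 58721 rows, 45 copies of the pseudoautosomal region were left out. RPKM values are whole multiples of what 1 read is worth: of 26151 genes with a recovered step, 26117 had only whole reads within 0.02.

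Values were analysed as log2(RPKM + 1), which understates changes of low genes, with limma 3.58.1 in R 4.3.3 (trend, all 4 groups of an assay in 1 fit, two-sided, Benjamini-Hochberg over all 9627 RNA-Seq or 9803 Subunit-Seq genes, threshold 0.05). Genes averaging under 1 RPKM in the 8 RNA-Seq libraries, or in the 4 inputs, were not tested. For Subunit-Seq, whose replicates were deposited as separate tables, the replicate number was a block; with 3 residual degrees of freedom and an infinite prior its errors use the pooled spread. RNA-Seq was fitted without a block (4 residual, 5.73 prior degrees of freedom). The steps were run on simulated reads with known fold changes and no replicate effect. That run therefore could not check how the calls hold under the replicate differences seen here. Sequences and gene spans are from RefSeq, GRCh38.p14.

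Members and lists were chosen with earlier results of these data known. Named are EIF3D, per class and contrast up to 4 called members with the largest difference, the 3 most abundant per class, members with a site, and of each related list up to 3 called genes or the 2 most abundant; SLBP, UPF1, H2AX, the members that missed the threshold, H2AC8 and H1-5 were partly chosen after their values were seen. Alternatives are given at the end. The list counts of the replication-independent histones are not reported here.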

Additional observations from a re-analysis of the deposited data

How the results depend on the processing

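No called difference changed sign under any alternative, while medians near 0 in uncalled contrasts did, as given above. Genes called in IP against input were 1591 in Tg and 2270 in DMSO as reported, against 446 and 1327 with a pseudocount of 0.1, 409 and 694 with a floor of 5 RPKM, 77 and 19 with median-ratio scaling, 191 and 647 with voom weights on recovered reads, 36 and 24 without the replicate block, and 0 and 0 without a floor or with each gene's own spread; scaling to reads outside mitochondrial ribosomal RNA gave 854 in Tg. Members called, 40 and 36 as reported, came to 28 and 14 with voom weights, 31 and 7 with median-ratio scaling, 6 and 0 without the replicate block, and 0 and 0 without a floor or with each gene's own spread. The member median in DMSO was -3.68 with median-ratio scaling. The 6 genes called for the difference between treatments and the 5 called between inputs became 0 with a pseudocount of 0.1, without a floor, with either scaling, with voom weights, with each gene's own spread and without the replicate block. The 7 genes called between IP groups became 1 with a pseudocount of 0.1, 2 with a floor of 5 RPKM and 0 under the other 6. The causes of these moves were not tested. Leaving out 1 library at a time gave 114 to 2903 genes and 11 to 40 members in Tg, 0 to 5061 genes and 0 to 31 members in DMSO, 0 to 19 genes and 0 to 1 members for the difference, 0 to 33 genes and 0 to 1 members between inputs, with a median of -0.22 to 2.35, and 0 to 24 genes between IP groups, with a median of -0.98 to 0.73. The 1 member was H2AC8, without the second Tg input. In RNA-Seq no alternative called a member. The replicate block called 0 genes in all 5 contrasts, and 3 genes for DD against WT in DMSO when the second DD Tg library was also left out. The median for DD against WT in Tg was -0.33 with median-ratio scaling and -0.46 to 0.14 with 1 library left out. Deviations of same-numbered libraries from their group means correlated at 0.134 to 0.864 across genes in RNA-Seq and 0.00194 to 0.510 in Subunit-Seq. In RNA-Seq the values that involve DD Tg were 0.134 to 0.299, and those among the other groups 0.743 to 0.864. This is a hint from the data and not from the labels, and the main RNA-Seq fit did not pair libraries by number. The RNA-Seq medians given within replicate numbers do set same-numbered libraries against each other. Those medians, and whether their signs differ, depend on that matching. Of the values of single members, 6323 kept their call or, where not called, stayed within 1 SE, 483 lost a call, 544 that were not called moved by more than 1 SE and 2 gained a call. With 2 libraries a group, a histone mRNA that changed little in RNA-Seq could not be told from one that did not change. The limit was not confined to small changes. The main RNA-Seq fit called no gene in any contrast, and H2AC8 was not called at the DD against WT differences given above. The lack of RNA-Seq calls therefore does not exclude large changes of single members. Reads in the IP libraries are few for many members. In each second IP library 11 tested members were at 0, against 1 in the first Tg IP library and 0 in the first DMSO one. These zeros were not limited to short gene models. H2BC15, at 5477 bases, had 0 reads in the second DMSO IP library and 150 in the second Tg one. H2AC13 had 47 and 0 reads in these libraries and H4C3 17 and 0, so their low Tg differences rest partly on a 0.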
